A study of Mus musculus with 12 samples.

Results

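Scd1, Scd2 and Scd3, Fads1 and Fads2, and Elovl1, Elovl2, Elovl3, Elovl5 and Elovl6 are 10 genes of enzymes that place double bonds in fatty acids or lengthen their chains. They were followed in spontaneous hepatocellular carcinomas (HCC) and normal livers of mice. Members were chosen by name. Every probe set whose annotation gave 1 of the 10 symbols was taken, which gave 23 of 45037 non-control probe sets. The 10 genes stand among 18193 genes with a probe set. All 12 livers came from untreated B6C3F1 mice, a first-generation hybrid strain, of a 2-year bioassay of the National Toxicology Program. Every sample was labelled with an age of 2 years. One group was 6 HCC, labelled as tumours that arose spontaneously, and the other was 6 normal livers, labelled as controls. RNA from frozen tissue of each was measured on 1 Affymetrix array. The labels do not say how much non-tumour tissue a tumour sample held, nor whether each array is a separate animal, so p-values measure the spread between these samples. In such bulk tissue, fewer cells of a type and less RNA per cell cannot be told apart.

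Stearoyl-CoA desaturases put a double bond at the delta-9 position of saturated fatty acids, and make palmitoleate and oleate. Fads2 and Fads1 are the delta-6 and delta-5 desaturases that turn dietary linoleate and alpha-linolenate into highly unsaturated fatty acids such as arachidonate. Elongases add carbons in the endoplasmic reticulum, each with its own choice of chain: Elovl6 takes palmitate to stearate, Elovl1 and Elovl3 act on long saturated and monounsaturated chains, and Elovl5 and Elovl2 act on polyunsaturated ones. In mouse liver Scd1 is the main delta-9 desaturase of the adult, Scd2 is known from fetal and newborn liver and from brain, and Elovl3 is known as a gene of male liver.

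Levels are given as log2(intensity + 16) after quantile normalization, on which scale the lowest possible value is about 4, and a difference of 1 is a doubling for bright probe sets and understates the change of dim ones. Levels of different probe sets are not comparable with each other. Arrays had medians of the deposited intensity from 92.1 to 114, and no batch is given in the labels. Arrays split by Y-linked genes: the mean level of Eif2s3y, Kdm5d and Uty was 4.17 to 4.85 in normal 1, normal 3, HCC 1 and HCC 4. In the remaining 8 arrays, 4 of each group, it was 8.96 to 9.78. The labels do not give sex. Of the measured hepatocyte markers (Alb, Ttr, Apoa1, Apob, Tat, Hnf4a and Fgb), 0 of 7 passed the test. Their mean level was 15.03 to 15.17 in normal liver and 14.84 to 15.14 in HCC. The labelled tissue thus carried these markers in both groups. Several lie near the top of the scale, with a normal mean of 16.06 for Apoa1, so their mean can show little change. Tat, which is less bright, stood at -1.14 (limma adjusted p = 0.0503).

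In HCC against normal liver, Scd2 rose by 4.81 at its brightest probe set and Elovl3 fell by 5.23, on a log2 scale. The fall of Elovl3 was 7.06 among arrays with signal of Y-linked genes and 1.57, not past the test, among those without. Elovl6 was lower by the test in 1 of its 3 probe sets, and no probe set of Scd1, Scd3, Fads1, Fads2, Elovl1, Elovl2 or Elovl5 passed the test. Calls rest on limma over all probe sets with a Benjamini-Hochberg adjusted p under 0.05. Of the 23 member probe sets, 3 were higher and 2 lower in HCC, where 4.38% of all probe sets were higher and 3.95% lower (8.33% in either direction). Taken 1 probe set per gene, the brightest, 1 of 10 genes was higher and 1 lower, against a background of 5.27% of genes higher and 5.49% lower (10.8% in either direction). The median difference over the 23 was -0.15, beside -0.02 over all probe sets. On a filter for dim probe sets, 22 of the 23 had a group mean above 6.76, the level of the median probe set. The exception was 1 of the 2 probe sets of Scd3.

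**Figure D1:**
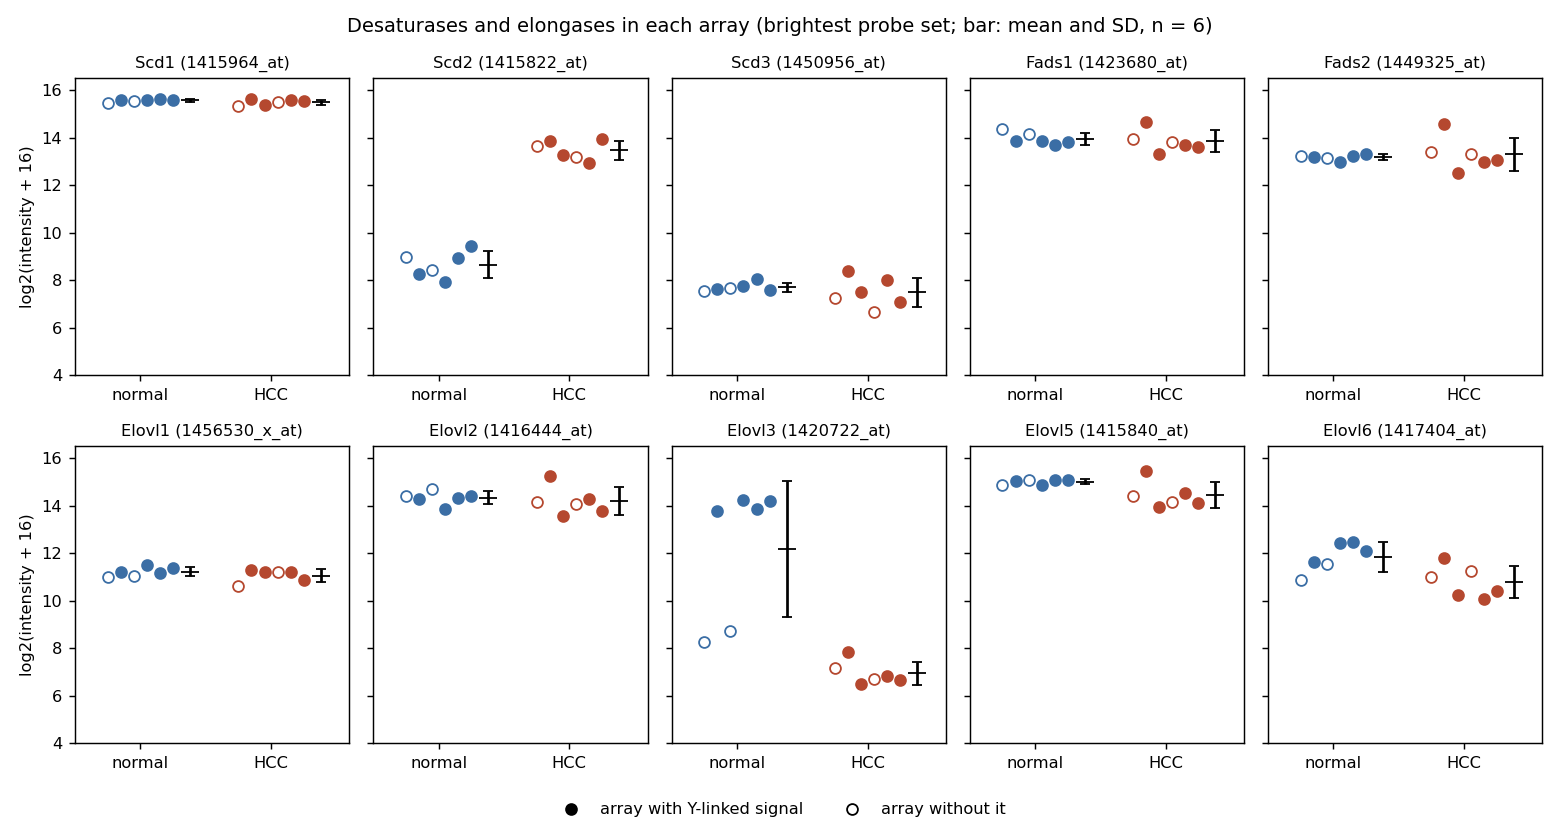
Level of each of the 10 genes by its brightest probe set, as log2(intensity + 16), in 6 normal livers (blue) and 6 HCC (red); filled points are arrays with Y-linked signal, open points arrays without it, and black bars are the mean and SD. Scd2 lies between 7.91 and 9.45 in normal liver and between 12.94 and 13.96 in HCC, and Elovl3 splits the normal livers by Y-linked signal and is at 7.85 or less in HCC.

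Scd2 showed the clearest difference. Its brightest probe set (1415822_at) had a lowest level of 7.91, a median of 8.69 and a highest level of 9.45 in normal liver. In HCC the lowest was 12.94, the median 13.46 and the highest 13.96. Every tumour lay far above every normal liver. The mean rose from 8.67 ± 0.56 to 13.48 ± 0.40 (SD, n = 6 each), a difference of 4.81 ± 0.27 (SE, limma adjusted p = 1.07e-06), which is 28.1-fold on this scale. It was the 15th largest rise among 18193 genes. The other probe sets gave the same picture. Probe set 1415823_at went from 4.91 to 8.05 in normal liver to 10.79 to 12.06 in HCC, a difference of 4.68 ± 0.46 (SE, limma adjusted p = 1.03e-04). The lowest of those normal values, in normal 4, is close to the floor of the scale, so the size of this difference is less well measured. Probe set 1415824_at, with 6.30 to 7.27 in normal liver and 9.51 to 10.70 in HCC, differed by 3.34 ± 0.24 (SE, limma adjusted p = 1.06e-05). No overlap with all HCC higher was seen in 3.41% of all probe sets, and in all 3 of Scd2. Counted by gene, 1 of 10 members lay wholly above normal liver and 1 wholly below, where 4.25% and 4.5% of all genes did.

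The tumours were alike in Scd2. Relative to the normal mean they stood at 4.28 (HCC 5), 4.54 (HCC 4), 4.60 (HCC 3), 4.975 (HCC 1), 5.20 (HCC 2) and 5.30 (HCC 6), with an SD of 0.40 where the normal livers had 0.56. All 3 probe sets ranked HCC 5 lowest and put HCC 2 and HCC 6 in the top places. The rise was 4.87 among arrays that carried Y-linked signal (4 against 4) and 4.71 among those that did not (2 against 2). Glutamine synthetase (Glul), a pericentral Wnt target, was low in HCC 2, HCC 3 and HCC 5 (11.40 to 12.03) and high in HCC 1, HCC 4 and HCC 6 (14.62 to 15.16). Scd2 was high in all 6 tumours, with both sets of 3 spanning nearly the same range.

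Scd1, the adult isoform, did not pass the test. Probe set 1415964_at had a lowest, median and highest level of 15.45, 15.60 and 15.62 in normal liver and of 15.36, 15.54 and 15.62 in HCC. The groups overlapped almost fully. The difference was -0.07 (95% interval -0.33 to 0.19, limma adjusted p = 0.777). Only 0.0511% of probe sets were brighter, so this probe set lies near the top of the scale. The dimmer probe set 1415965_at spread more, from 13.12 to 14.89 in normal liver and from 13.14 to 15.03 in HCC. Its difference was -0.11 (95% interval -0.98 to 0.75, limma adjusted p = 0.909). Both limits of that interval lie within 1 log2 unit of 0.

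Scd2 minus Scd1 within an array, each by its brightest probe set, was -6.91 ± 0.58 in normal liver and -2.02 ± 0.40 in HCC (SD, n = 6 each), a shift of 4.89. When each gene's probe sets were averaged the shift was 4.37. Because the Scd1 probe set is near the top of the scale and varied little, the shift follows Scd2 and is no evidence separate from its rise. The groups were apart in it, as they were in Scd2 alone, so the exact permutation test (two-sided, p = 0.00216) gives the smallest value that 6 against 6 allow and adds nothing to the Scd2 result.

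Scd3, a delta-9 desaturase known from skin and Harderian gland, was dim. Probe set 1450956_at had a lowest, median and highest level of 7.53, 7.66 and 8.06 in normal liver and 6.68, 7.40 and 8.40 in HCC, and the HCC values lay on both sides of the normal ones. The difference was -0.22 (95% interval -0.78 to 0.34, limma adjusted p = 0.672). Probe set 1423366_at was near the floor in several arrays, with a range of 4.68 to 6.79 in normal liver and 4.26 to 6.42 in HCC. Scd1, Scd2 and Scd3 are close paralogues of 1 cluster on chromosome 19, which also holds Scd4 (RefSeq, GRCm38.p6). Whether probes of one also take up RNA of another was not tested. In this cluster 3 of 3 probe sets of Scd2 passed the test and 0 of 2 of Scd1 and 0 of 2 of Scd3 did, and the difference between Scd2 and Scd3 was not tested.

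**Figure D2:**
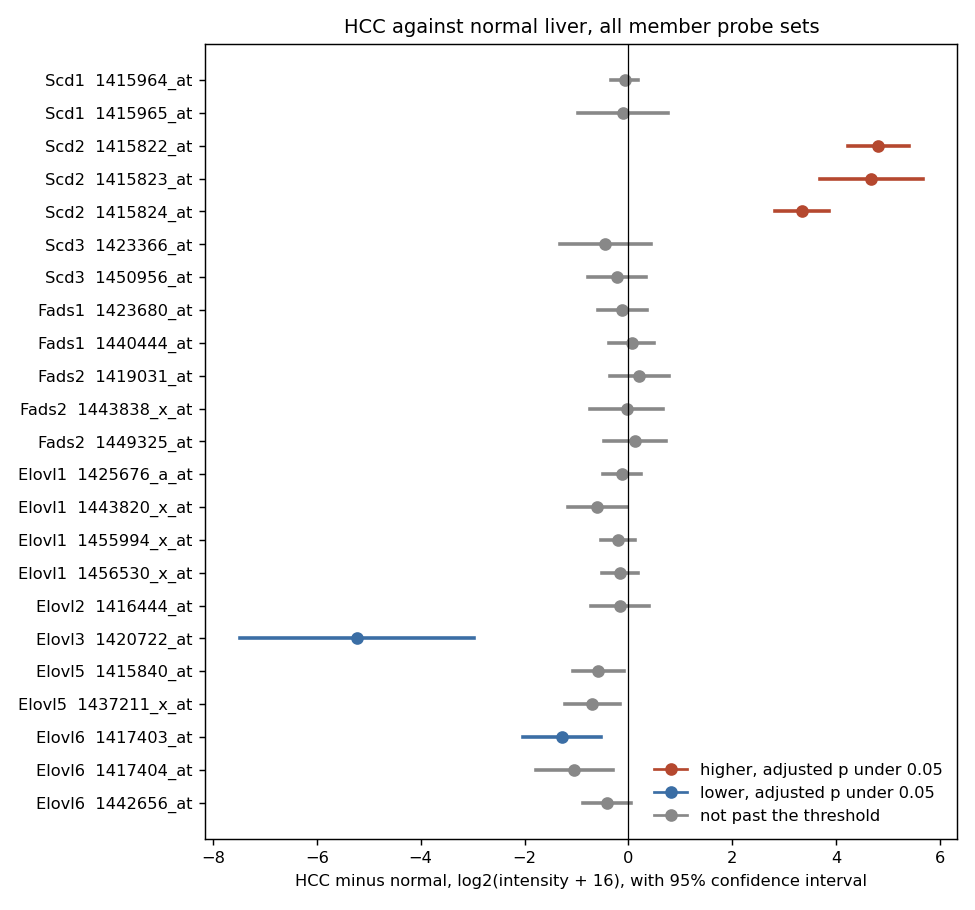
HCC minus normal liver for the 23 probe sets of the 10 genes, on the log2(intensity + 16) scale, with 95% confidence intervals from limma (n = 6 each); red marks probe sets called higher, blue those called lower and grey those that did not pass. The 3 probe sets of Scd2 lie between 3.34 and 4.81, Elovl3 at -5.23, and the intervals of Fads1, Fads2, Elovl2, Scd1 and Scd3 all cross 0.

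Elovl3 (1420722_at) had the largest fall of the 10 genes and the 4th largest of 18193. In normal liver its lowest level was 8.27, the median 13.83 and the highest 14.24. In HCC the lowest was 6.51, the median 6.77 and the highest 7.85. All HCC lay below all normal livers, which was so for 3.08% of all probe sets. The means were 12.18 ± 2.87 and 6.95 ± 0.49 (SD, n = 6 each), a difference of -5.23 ± 1.05 (SE, limma adjusted p = 0.00898).

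The normal livers fell into 2 levels of Elovl3. Normal 1 and normal 3, the arrays without Y-linked signal, were at 8.27 and 8.71, and the 4 with it were at 13.79, 13.87, 14.19 and 14.24. In HCC that division was not seen: HCC 1 and HCC 4, without Y-linked signal, were at 7.15 and 6.70, and the other tumours at 6.51, 6.65, 6.84 and 7.85. Arrays with Y-linked signal exceeded those without by 5.53 in normal liver and by 0.04 in HCC. Elovl3 was therefore lower in HCC by 7.06 among arrays with Y-linked signal and by 1.57 among those without. The difference between these falls was -5.49 ± 0.51 (SE, limma interaction over all probe sets, adjusted p = 0.00695), and it was called in 1 of the 23 member probe sets where 0.0444% of all probe sets were called. That call was lost without normal 1 (adjusted p = 0.0646) or normal 3 (adjusted p = 0.063), each of which leaves 1 normal liver without Y-linked signal, assumed to vary like the others. HCC 1 and HCC 4 also had the highest levels of Glul among the tumours, so Y-linked signal and that state overlap in part among the tumours. HCC 6, with Y-linked signal, was high in Glul too (14.6) and had Elovl3 at 6.65. The part of each was not tested. The fall among the 2 and 2 without Y-linked signal did not pass by itself (limma adjusted p = 0.175).

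Other genes of male liver were set beside Elovl3. Over all genes 5.27% were higher and 5.49% lower by the test. Of 7 measured male-biased genes, 2 fell and none rose: the glucuronosyltransferase Ugt2b1 differed by -2.49 and the oxysterol hydroxylase Cyp7b1 by -2.32 (limma adjusted p = 0.0203 and 0.0217). Cyp7b1 lost its call without normal 4 or normal 5 (adjusted p up to 0.0508). Ugt2b1 did not pass among arrays with Y-linked signal alone (adjusted p = 0.0761), and Cyp7b1 differed by -3.34 among those arrays and by -0.28 among the arrays without. The list's median difference was -2.49, beside -0.04 over all genes, and it turned sign with Y-linked signal: -3.34 in arrays with it and 0.68 in arrays without. In 4 of the 7, named after their values were seen, no group difference passed but the interaction with Y-linked signal did: the steroid dehydrogenase Hsd3b5, the lauric acid hydroxylase Cyp4a12a, the organic anion transporter Slco1a1 (limma adjusted p = 0.0274 each) and the cytochrome P450 Cyp2d9 (0.0329). With Y-linked signal the first 3 differed by -6.86, -6.85 and -6.71, and without it by 2.09, -0.92 and 0.68. Cyp2d9 differed by -2.13 with Y-linked signal and by 2.73 without, and its tumours, at 11.20 to 12.96, lay between both levels of the normal livers. In the list of 5 measured female-biased genes, the median difference was -0.82 and 1 rose, Prom1 by 4.29 (limma adjusted p = 0.00167), which encodes the progenitor cell marker prominin 1. The sulfotransferase Sult3a1 of that list, also named after its values were seen, passed the interaction (limma adjusted p = 0.032), with -0.44 in arrays with Y-linked signal and -6.69 in arrays without. Over the 12 arrays, after subtracting each group's mean, the genes whose deviations were most like those of Elovl3 were Ttc39c (r = 0.97), Slco1a1 (0.97), Mindy3 (0.96), Cyp4a12a (0.96) and Nox4 (0.96). These arrays fall into separate levels by Y-linked signal, which all these values share. For Scd2 the 5 nearest genes were D030056L22Rik (0.91), Bcdin3d (0.88), Prima1 (0.87), Phyhip (0.85) and Ttll6 (0.84), and none of them passed the test between HCC and normal liver.

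Elovl6, the palmitate elongase, was lower in HCC. Probe set 1417403_at had a lowest, median and highest level of 9.94, 10.97 and 11.50 in normal liver and of 8.79, 9.52 and 10.76 in HCC. The groups overlapped, since HCC 2 and HCC 4 lay above the lowest normal liver. The difference was -1.28 ± 0.35 (SE, limma adjusted p = 0.0385), 2.43-fold lower on this scale. The call was lost without any of 10 of the 12 arrays, those other than normal 1 and HCC 2 (adjusted p up to 0.0844), with a pseudocount of 1 (0.054) and with a replicate block (0.103). The brighter probe set 1417404_at differed by -1.04 ± 0.34 (SE) and did not pass (limma adjusted p = 0.0825), but passed without dim probe sets (0.0412), without normal 1 (0.0411) or without HCC 2 (0.0342). The mean of the probe sets of Elovl6 passed at -0.91 (limma adjusted p = 0.0458), and 1442656_at stood at -0.41 (0.266). Elovl6 was also uneven with Y-linked signal. With that signal the difference at 1417403_at was -1.68, and without it -0.49. The interaction did not pass (limma adjusted p = 0.771).

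Elovl1 makes saturated very long chains for sphingolipids and is broadly expressed. Its brightest probe set, 1456530_x_at, went from 11.02 to 11.50 in normal liver and from 10.62 to 11.29 in HCC. The difference was -0.16 (95% interval -0.50 to 0.19, limma adjusted p = 0.618). The other 3 probe sets of Elovl1 had differences from -0.60 to -0.13, none past the test. The suffix _x marks probe sets whose probes may also bind other transcripts, and 3 of the 4 for Elovl1 carry it.

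The enzymes of polyunsaturated fatty acids, Fads2 and Fads1 and the elongases Elovl5 and Elovl2, had no probe set past the test. They varied together from tumour to tumour. Fads2 (1449325_at), the first enzyme of the path, was between 12.98 and 13.32 in normal liver (SD 0.12) and between 12.50 and 14.58 in HCC (SD 0.70). HCC 2 was the high value and HCC 3 the low one, and both were outside the normal range. The mean difference was 0.12 (95% interval -0.47 to 0.72, limma adjusted p = 0.842). Fads1 (1423680_at) ran from 13.68 to 14.39 in normal liver and from 13.33 to 14.68 in HCC, with the same tumours at the ends. Its difference was -0.11 (95% interval -0.59 to 0.36, limma adjusted p = 0.812).

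Elovl2 (1416444_at), which makes the longest polyunsaturated chains on the way to docosahexaenoate, was at 13.85 to 14.72 in normal liver and at 13.58 (HCC 3) to 15.26 (HCC 2) in HCC. The difference was -0.15 (95% interval -0.71 to 0.41, limma adjusted p = 0.784). Elovl5 (1415840_at) was the most even of the 4 in normal liver, at 14.87 to 15.09. In HCC it reached from 13.94 to 15.47, and 5 tumours lay below all normal livers while HCC 2 lay above them. The difference of -0.58 ± 0.23 (SE) did not pass (limma adjusted p = 0.147), nor did that of 1437211_x_at, -0.69 ± 0.25 (0.105). Without HCC 2 both passed, at -0.78 and -0.91 (limma adjusted p = 0.00877 and 0.00806).

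Across the 8 probe sets of these 4 genes, HCC 2 was the highest tumour in 8 and lay above all normal livers in 8. HCC 3 was the lowest tumour in 7 and lay below all normal livers in 7. Over all probe sets HCC 2 was the highest tumour in 17.8% and HCC 3 the lowest in 15.6%. HCC 2 lay above all normal livers in 18.8% of all probe sets, and HCC 3 below all of them in 22%. Probe sets of 1 gene share their transcript, so these are not independent counts. Averaged over the 4 genes, HCC 2 stood at 0.87 against the normal mean, HCC 3 at -0.78, and the remaining tumours between -0.49 and -0.14. Deviations from the group means over the 12 arrays correlated at 0.75 to 0.93 in each of the 6 pairs of these genes, as a description of samples among which HCC 2 and HCC 3 lie at the ends. Other members shared part of this: the correlation with these 4 genes was 0.12 to 0.54 for Scd1 and 0.24 to 0.43 for Scd2. It was 0.325 to 0.745 for Scd3 and 0.27 to 0.61 for Elovl6, but -0.06 to 0.23 for Elovl1 and -0.30 to 0.20 for Elovl3. HCC 2 was also the highest tumour in 9 of the 10 genes by the brightest probe set, Scd2 being the exception. Counted by probe set, HCC 2 was highest in 17 of 23 and lowest in 1, Elovl1 1443820_x_at. Dimmer probe sets of Elovl1 and Elovl6 thus did not all put HCC 2 first.

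**Figure D3:**
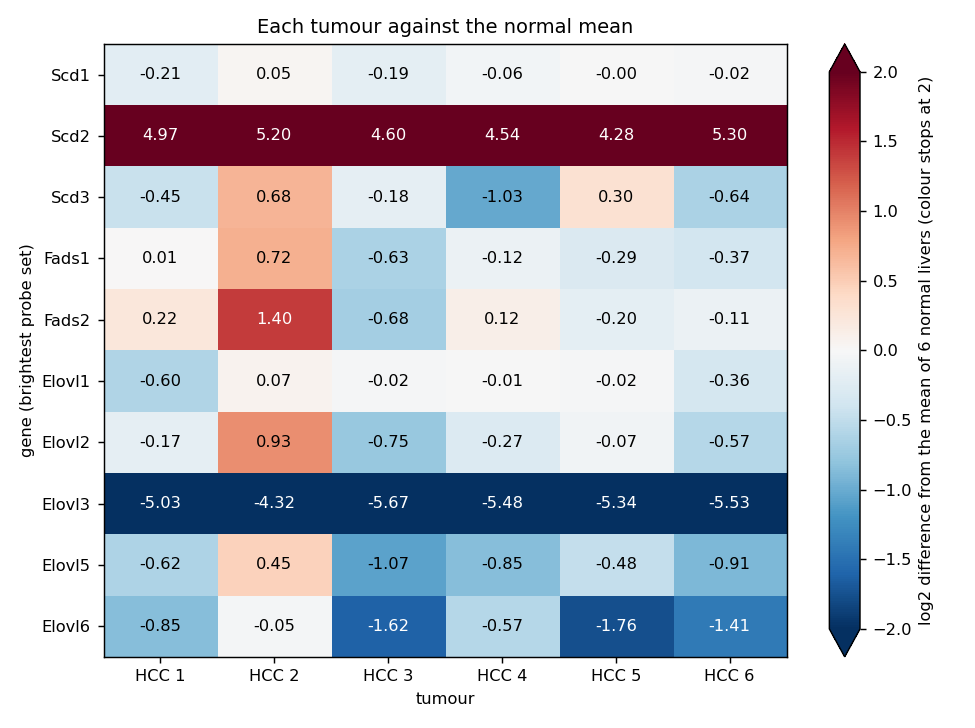
Difference of each of the 6 HCC from the mean of the 6 normal livers, in log2 units, for the 10 genes by brightest probe set; red is higher, blue lower, and colours stop at 2. Scd2 and Elovl3 keep 1 direction in all 6 tumours, while Fads1, Fads2, Elovl2 and Elovl5 are high in HCC 2 and lowest in HCC 3.

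Because these genes varied together among the tumours, the sequence before their start sites is shown. RefSeq promoters on GRCm38.p6 matched 6 of the 10 members (Scd3, Fads2, Elovl1, Elovl2, Elovl5 and Elovl6). The 250 bases before an annotated start are printed 5′ to 3′ in the direction of the gene. They are given for Fads2 (chr19:10101504-10101753, minus strand), Elovl2 (chr13:41220404-41220653, minus strand) and Elovl5 (chr9:77917115-77917364, plus strand). Elovl6 (chr3:129532136-129532385, plus strand) is printed as a member outside these 4 genes, though HCC 2 was the highest tumour at its brightest probe set too. Capitals mark matches, on either strand, to any of 6 motifs.
Fads2: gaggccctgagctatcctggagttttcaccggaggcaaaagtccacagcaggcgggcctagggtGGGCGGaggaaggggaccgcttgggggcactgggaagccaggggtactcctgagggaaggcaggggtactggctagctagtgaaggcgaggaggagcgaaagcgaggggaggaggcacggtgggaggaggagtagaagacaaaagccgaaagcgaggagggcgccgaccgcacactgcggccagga
Elovl2: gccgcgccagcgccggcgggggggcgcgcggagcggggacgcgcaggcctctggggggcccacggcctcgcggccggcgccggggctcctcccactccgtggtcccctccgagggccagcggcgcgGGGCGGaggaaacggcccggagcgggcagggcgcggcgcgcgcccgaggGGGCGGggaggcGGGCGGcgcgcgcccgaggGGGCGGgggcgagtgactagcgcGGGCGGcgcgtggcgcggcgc
Elovl5: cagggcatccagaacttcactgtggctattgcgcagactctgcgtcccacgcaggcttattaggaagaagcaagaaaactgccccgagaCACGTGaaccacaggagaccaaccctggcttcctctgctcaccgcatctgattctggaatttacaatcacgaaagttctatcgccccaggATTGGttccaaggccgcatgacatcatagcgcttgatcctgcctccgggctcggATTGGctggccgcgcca
Elovl6: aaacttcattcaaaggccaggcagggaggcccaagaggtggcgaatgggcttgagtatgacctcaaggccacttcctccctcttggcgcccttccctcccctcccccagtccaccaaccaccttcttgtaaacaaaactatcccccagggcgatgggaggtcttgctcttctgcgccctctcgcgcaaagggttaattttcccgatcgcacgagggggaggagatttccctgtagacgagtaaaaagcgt

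The motifs, searched on both strands, were the CCAAT box of NF-Y (CCAAT), the E-box CACGTG, the GC box of Sp1 (GGGCGG), a core of the sterol regulatory element bound by SREBP (TCACNCCAC), the cyclic AMP response element TGACGTCA, and the repeat bound by PPAR (AGGTCA, any 1 base, AGGTCA). None contains another. In the 250 bases before 32851 annotated starts they were found in 33.8%, 6.02%, 32.7%, 1.05%, 1.55% and 0.0335%. Elovl5 held 2 CCAAT boxes on the opposite strand, at bases -71 to -67 and -17 to -13 from the start, and an E-box at -161 to -156. Elovl2, of whose printed bases 87.2% are G or C, held 5 GC boxes, and Fads2 held 1, at -186 to -181. The window of another annotated start of Elovl2 (chr13:41220163-41220412, 79.6% G or C), not printed, held none of the 6 motifs. The Elovl6 window held none of the 6 letter strings. No motif was found in all 3 printed genes that varied together. The windows of Elovl1, a member that varied less with these genes (r = -0.06 to 0.23), are not printed. They held GC boxes before each annotated start and, at -35 to -31 of 1 start, a CCAAT box. GC and CCAAT boxes were thus not confined to the genes that varied together. These are matches of letters only.

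Other genes of the pathway were taken from lists. Over all genes 5.27% were higher and 5.49% lower by the test, shares that stand beside the counts of each list below. Among 6 other desaturases and elongases, 1 rose and none fell: Elovl7, an elongase of saturated very long chains. It was between 5.45 and 7.51 in normal liver and between 8.86 and 11.54 in HCC, with no overlap, a difference of 3.30 ± 0.48 (SE, limma adjusted p = 0.00151). Elovl7 was highest in HCC 1, unlike Scd2. The median of that list was 0.04. Of 10 enzymes that complete the elongation cycle or carry electrons to desaturases, 1 rose, the cytochrome b5 reductase Cyb5r1 by 1.04 (limma adjusted p = 0.00979), and none fell (median 0.06).

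Genes that supply saturated chains were mostly lower or not past the test. Of 12 genes of fatty acid synthesis and activation, 3 fell and 1 rose, with a median of -0.55 beside -0.04 over all genes. The lipogenic regulator Thrsp fell by 2.98 (limma adjusted p = 2.57e-04). Malic enzyme Me1, a source of NADPH, fell by 1.98 (0.011), and the acetyl-CoA synthetase Acss2 fell by 1.83 (0.00774). The riser, named after its value was seen, was Acsl4, which activates arachidonate, by 1.41 (limma adjusted p = 3.68e-04). Me1 lost its call with a replicate block (adjusted p = 0.0618), and Acss2 lost it among arrays with Y-linked signal alone (adjusted p = 0.116). HCC 2 stood apart here too: the average of the 12 genes against the normal mean was 0.10 there, and from -1.20 to -0.80 in the other tumours.

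Of 17 genes that use these chains in glycerolipids, cholesterol esters, sphingolipids or peroxisomes, 2 fell and none rose. Their median was -0.04, beside -0.04 over all genes. Hsd17b4, an enzyme of peroxisomal chain shortening, differed by -1.02 and the acyltransferase Agpat2 by -0.68 (limma adjusted p = 0.0196 and 0.0471). Agpat2 passed only 2 of the 12 fits that leave out an array, those lacking HCC 2 or HCC 6 (largest adjusted p 0.0953). Both genes lost their call with a replicate block (0.0889 for Agpat2 and 0.0621 for Hsd17b4). They also lost it among arrays with Y-linked signal alone (0.179 for Agpat2 and 0.0925 for Hsd17b4). Of 15 regulators none passed, with a median of -0.29. The smallest p was that of Srebf1, the gene of the lipogenic factor SREBP-1, at -0.51 (limma adjusted p = 0.0598), with all HCC below all normal livers. Srebf1 did pass under 8 alternatives (adjusted p from 0.0122 to 0.0426), among them the deposited scaling, median centring and the dim filter, at -0.72 to -0.51.

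**Figure D4:**
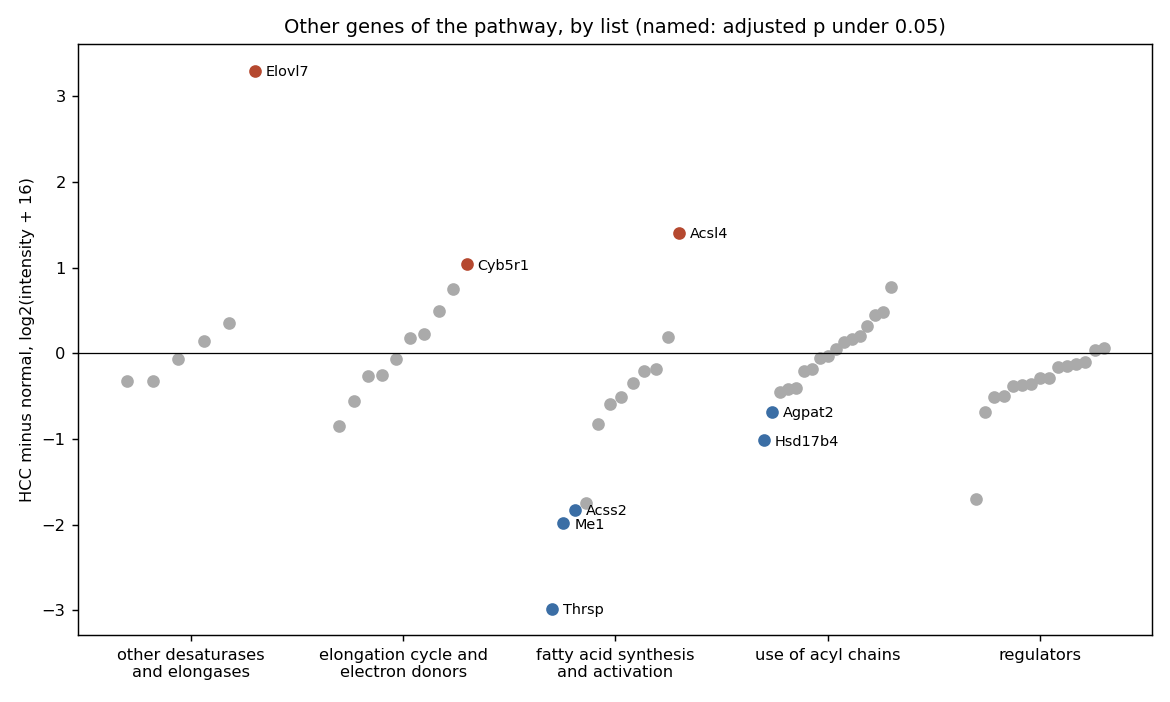
HCC minus normal liver, in log2 units, for the genes of 5 lists around the desaturases and elongases, each gene by its brightest probe set; red and blue are genes past the test, named, and grey those that did not pass. Elovl7 at 3.30 and Thrsp at -2.98 are the ends of the plot, and no regulator is named.

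Markers of other cells were set beside the rise of Scd2, which adipocytes and dividing cells are also known to express. Of 6 measured adipocyte markers 2 rose, Fabp4 by 2.46 and Cidec by 1.83 (limma adjusted p = 0.00917 and 0.0259), and the mean of the list was 5.53 to 6.57 in normal liver and 6.37 to 7.32 in HCC. Fabp4 is also known from capillary endothelium and Cidec from fatty hepatocytes, and Cidec fell short of the threshold when normal 1, normal 2, normal 4 or HCC 4 was left out (largest adjusted p 0.0567), with the replicate block (0.0639) or among arrays with Y-linked signal alone (0.144). The other 4 did not pass: the adipokine genes Adipoq, Lep and Retn and the brown fat gene Ucp1 had highest levels of 6.49, 5.55, 7.88 (normal 5) and 5.80 in any array. None of the 6 was under 5 in all arrays. Of 7 proliferation genes 6 rose, with Birc5 at 2.95, Ube2c at 2.81 and Cdk1 at 2.60 (limma adjusted p from 4.45e-04 to 0.00229), and the list mean was 6.36 to 6.99 in normal liver and 7.64 to 9.09 in HCC. The part of these cells or states in the Scd2 value was not tested.

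Markers of Kupffer cells and macrophages (8 measured) had 2 lower and none higher, with list means of 8.83 to 9.98 in normal liver and 8.13 to 9.77 in HCC. The lower ones were Clec4f at -2.36 and Cd163 at -1.16. Of the 8 differences 3 were positive (median -0.41), the largest that of Cd68 at 1.34, not past the test (limma adjusted p = 0.135). Endothelial markers (8) had 2 lower and none higher, at 8.55 to 9.44 and 7.85 to 9.30, with 3 of the 8 differences positive (median -0.39). Stellate cell and fibroblast markers (8) had 1 lower, Lrat at -2.52 (limma adjusted p = 0.02), and none higher. Their median was nonetheless 0.72, with 5 of the 8 positive, and Col1a1 at 3.27 fell short of the threshold (limma adjusted p = 0.0516). The list mean was 8.57 to 9.50 in normal liver and 7.28 to 12.18 in HCC, with HCC 6 the highest. Over all genes 5.27% were higher and 5.49% lower. None of 5 cholangiocyte markers (6.36 to 6.95 and 5.86 to 7.68) and none of 7 lymphocyte markers (6.49 to 7.17 and 6.85 to 7.84) passed. No marker of these lists was under 5 in every array. Of 12 circadian clock genes none passed (median -0.07, smallest p for Per3 at -0.53, limma adjusted p = 0.195). Nr1d1, known to control Elovl3, stood at -0.50 with SDs of 1.66 in normal liver and 1.43 in HCC. It was at 9.41 and 9.80 in HCC 3 and HCC 5 and at 6.58 to 7.31 in the other tumours. Dbp, named after its values were seen, was at 10.415 and 10.35 in normal 3 and normal 5 and at 7.66 to 7.96 in the other normal livers. In HCC 3 and HCC 5 it was at 12.16 and 11.98, and in the other tumours at 7.58 to 8.87. Clock genes thus differed between arrays within each group, and the cause was not tested. Of 10 pericentral Wnt targets none passed (median -0.33, smallest p for Cyp2e1 at -0.89, limma adjusted p = 0.182). Against the normal mean, their average stood at 2.30 (HCC 1), 1.61 (HCC 4), 0.48 (HCC 6), -1.68 (HCC 5), -2.50 (HCC 3) and -2.55 (HCC 2). HCC 2 and HCC 3, at opposite ends in Fads1, Fads2, Elovl2 and Elovl5, were thus close in this list. Rhbg of this list, named after its values were seen, passed the interaction with Y-linked signal (limma adjusted p = 0.0274). It differed by -0.68 in arrays with that signal and by 4.01 in arrays without it. Interaction calls were thus not confined to the lists of sex-biased genes.

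Spread among the tumours differed by gene. The SD in HCC was larger than in normal liver in 17 of the 23 probe sets, where 58.5% of all probe sets had the larger SD in HCC. The ratio of SDs was 5.90 for Fads2 (1449325_at) and 5.07 for Elovl5 (1415840_at). It was 0.72 for Scd2 (1415822_at) and 0.17 for Elovl3, where the split of the normal livers by Y-linked signal sets the denominator. These ratios are descriptions with no test.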

How the data were processed

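RNA of 6 HCC and 6 normal livers was measured on 12 single-colour arrays. Per the labels' protocols, TRIzol and a column with a DNase step gave the RNA, which was then biotin labelled. The intensity values deposited by the authors are linear and were scaled to a 2% trimmed mean of 500.0 on every array (summary software not given in the sources used here). Intensities plus 16 were put on the log2 scale and quantile normalized, 64 control probe sets were left out, and 45037 were tested with limma 3.58.1 (R 4.3.3, lmFit and eBayes, two-sided, Benjamini-Hochberg). Tables used Python 3.11.15, numpy 2.4.6, pandas 2.3.3 and scipy 1.17.1, and figures matplotlib 3.10.9. Same-number arrays correlated at -0.02 to 0.06 and were not taken as pairs. Y-linked signal was called above the midpoint of the arrays' range.

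Named genes were all members and, per list, up to 3 past the test with the largest difference, or the smallest p. Members and lists were chosen with earlier results of these data known. Scripts were tested on simulated data. Alternatives covered scaling, pseudocount, filter, unit, variance model, weights, block, arrays, Y-linked signal and threshold. The number of arrays limits the precision.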

Additional observations from a re-analysis of the deposited data

Results flagged for a closer look

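Elovl3 fell more in arrays with Y-linked signal than in those without, by -5.49 on the log2 scale (limma interaction, adjusted p = 0.00695, 4 against 4 and 2 against 2 arrays).

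In 2 of 48 groups of 6 values a sample stood apart from the rest by a gap test at the 95% level, which chance gives in about 1 in 20. Normal 1 was low in Scd1 (1415964_at) at 15.45 and in Elovl5 (1437211_x_at) at 14.36. The test covered the member probe sets and the difference of Scd2 and Scd1.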

How the results depend on the processing

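Scd2 and Elovl3 kept their direction under every alternative run, and their calls under all but the arrays without Y-linked signal alone, where 0 member probe sets were higher and 0 lower in 2 against 2 arrays (limma adjusted p = 0.0693 for Scd2 1415822_at). With all arrays 3 were higher and 2 lower. The number lower was 1 with a pseudocount of 1, the replicate block, the arrays with Y-linked signal alone or a threshold of 0.01, and 4 without dim probe sets. Counted by gene, 1 was higher and 1 lower by the brightest probe set, and 1 higher and 2 lower by the mean of probe sets. With trend and robust variance 3 were lower. Leaving out 1 array gave 3 higher each time, 1 to 5 lower, and 0 to 1 interaction calls. Apart from the arrays without Y-linked signal, the member probe sets whose group call changed were those of Elovl5 and Elovl6. The shift of Scd2 against Scd1 was 4.73 to 5.04 with 1 array left out and 4.89 with the replicate block, values that follow Scd2. Over all probe sets, 1971 were higher and 1781 lower, which became 1154 and 924 with the replicate block, 817 and 661 with Y-linked signal alone, 7 and 3 without it, 2776 and 2783 of 24436 without dim probe sets, and 1385 to 2014 and 1129 to 1938 with 1 array left out.

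Signs turned in members near 0, none of them called. With the deposited scaling Fads2 1443838_x_at was 0.0093 and Fads2 1449325_at -0.0175, the latter also at -0.085 with median centring. Fads1 1423680_at was 0.0083 with Y-linked signal alone. Without it, Scd1 1415965_at was 0.23, Scd3 1423366_at 0.50, Fads1 1440444_at -0.17, Elovl1 1425676_a_at 0.11, Elovl6 1442656_at 0.18 and Cyp2e1 0.14. With 1 array left out Scd1 1415965_at ran from -0.32 to 0.054, Fads1 1440444_at from -0.066 to 0.16, and Fads2 1419031_at from -0.0075 to 0.38, 1443838_x_at from -0.31 to 0.18 and 1449325_at from -0.13 to 0.28. The cause was not tested.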
